A study of Mus musculus with 3 samples.

Results

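The myostatin, activin and follistatin system was described in gene-edited mouse myoblasts through 10 genes taken as a named list from the 35562 genes of the libraries: the ligand genes Mstn, Gdf11, Inhba and Inhbb, the antagonist genes Fst and Fstl3, the type II receptor genes Acvr2a and Acvr2b, and the type I receptor genes Acvr1b and Tgfbr1. All 10 were found. RNA had been sequenced from 3 myoblast lines, numbered 66, 67 and 72, which form 1 condition. Myoblasts are dividing muscle precursors that descend from satellite cells, the resident stem cells of muscle. The lines carry the genotype Dmdmdx; Pax7-nGFP, that is, the mdx mutation of the dystrophin gene together with a nuclear GFP reporter of Pax7. The mutation had been edited with CRISPR/Cas9, so as to correct it, in induced pluripotent stem cells, from which intraspecies mouse chimeras were made, and every line shares this genotype, the correction and an origin in such chimeras. The labels give neither the chimera, its age nor its tamoxifen treatment for a line, so no groups were formed. Some mouse hosts of the study carried Cre under Pax7 control together with a diphtheria toxin gene, by which host satellite cells could be ablated, and the labels do not give the host of a line. The myoblasts had been purified by flow cytometry, so the levels are those of selected, cultured cells and not of muscle. Myoblasts of other mice were not analysed here. Nothing in the labels says that the lines came from separate animals, so the spread between lines may be partly technical.

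Myostatin and GDF11 are closely related secreted proteins of the TGF-β family, and activins are dimers of the inhibin beta subunits that Inhba and Inhbb encode. These ligands bind a type II receptor, ACVR2A or ACVR2B, which recruits and phosphorylates a type I receptor, ALK4 (Acvr1b) or ALK5 (Tgfbr1). The type I receptor then phosphorylates SMAD2 and SMAD3. Follistatin (Fst) and follistatin-like 3 (Fstl3) bind the ligands outside the cell and block them. In skeletal muscle, myostatin is known as a brake on muscle mass, and follistatin as its antagonist.

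The promoter sequences of the 4 members whose windows hold the TATA motif are shown (Mstn, Gdf11, Inhba and Fstl3). They were chosen with the levels known, and a link between the motif and the levels was not tested. Each sequence is from RefSeq (GRCm38.p6), runs 5′ to 3′ on the strand of its gene and ends just before the first annotated exon, which for Fstl3 leaves out the last bases of the window. Capitals mark TATAAA on either strand and the E-box CANNTG, which reads the same on both strands and is the type of site that MyoD-family factors bind. No capital stretches overlapped one another.
Mstn, chr1:53061390-53061639, plus strand: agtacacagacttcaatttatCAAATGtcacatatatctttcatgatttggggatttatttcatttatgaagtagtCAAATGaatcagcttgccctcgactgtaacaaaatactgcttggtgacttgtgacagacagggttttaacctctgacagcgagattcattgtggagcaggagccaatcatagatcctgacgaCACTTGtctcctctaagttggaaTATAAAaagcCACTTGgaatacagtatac
Gdf11, chr10:128891719-128891968, minus strand: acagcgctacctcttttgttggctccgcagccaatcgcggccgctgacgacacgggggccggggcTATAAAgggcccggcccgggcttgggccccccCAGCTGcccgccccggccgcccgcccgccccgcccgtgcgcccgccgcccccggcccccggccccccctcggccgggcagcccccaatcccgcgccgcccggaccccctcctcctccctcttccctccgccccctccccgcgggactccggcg
Inhba, chr13:16011601-16011850, plus strand: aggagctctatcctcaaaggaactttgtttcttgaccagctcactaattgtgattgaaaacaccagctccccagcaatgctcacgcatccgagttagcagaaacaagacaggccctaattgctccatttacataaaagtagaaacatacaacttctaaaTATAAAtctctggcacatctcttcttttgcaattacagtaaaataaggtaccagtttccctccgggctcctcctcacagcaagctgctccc
Fstl3, chr10:79777024-79777271, plus strand: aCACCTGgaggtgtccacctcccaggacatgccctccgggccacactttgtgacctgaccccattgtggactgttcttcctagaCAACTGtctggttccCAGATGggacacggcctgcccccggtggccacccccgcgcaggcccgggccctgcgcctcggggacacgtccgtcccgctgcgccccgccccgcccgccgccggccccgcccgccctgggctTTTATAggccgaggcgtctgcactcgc
The Mstn window held TATAAA 29 bases before the start and 4 E-boxes, at 229, 174, 52 and 19 bases before it. In Fstl3, the motif lay on the opposite strand (read as TTTATA), also 29 bases before the start, and 3 E-boxes lay farther upstream. Gdf11 held TATAAA 185 bases before the start with 1 E-box, and Inhba held it 91 bases before the start with no E-box. Of 32851 RefSeq promoter windows of the same 250 bases, 12.4% held TATAAA on either strand and 66.2% held CANNTG. Windows of 9 of the 10 members were listed, 10 windows in all with a pair for Tgfbr1. Of these, 4 held TATAAA and 5 held CANNTG. A match describes letters in a window and not a site in use.

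Levels are given in TPM, transcripts per 1000000, which has the same total in each library and corrects for transcript length so that different genes can be set side by side. The estimated counts totalled between 66972426 and 73274315 per library, and the members had between 185 and 5138 estimated counts per line. The cells were checked against marker lists first. Each of 6 myoblast markers (Pax7, Myod1, Myf5, Des, Itga7 and Cdh15) had at least 97.2 TPM in every line. Of 6 fibroblast markers, only Ly6a reached 1 TPM in every line and Lum and Dpt had a count of 0, which allows up to 3 counts. The summed level of that list was between 3.80 and 3.89 TPM. Of 4 endothelial markers, none reached 1 TPM in any line (summed level between 0.726 and 1.79 TPM). Of 3 immune markers, Cd68 did, at 2.92 to 4.23 TPM, whereas Adgre1 had a count of 0 and Ptprc between 1 and 7 counts. Markers of the onset of differentiation were present as well, and these differed between the lines. The summed level of Myog, Mymk, Mymx, Myh3, Actc1 and Ckm was 737 TPM in line 66, 1024 TPM in line 67 and 1381 TPM in line 72, and 6 of the 6 were lowest in line 66 and highest in line 72. In bulk RNA, more cells that express a gene and more RNA per cell cannot be told apart.

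Of the 10 members, 9 reached 1 TPM in each of the lines, and 4 reached 10 TPM in each. Among the 25510 genes detected in at least 1 line, 47.1% reached the first level and 31.5% the second. Summed over the members, the system amounted to 98.6, 107 and 122 TPM in lines 66, 67 and 72 (mean 109 ± 11.8, SD, n = 3 lines). By mean level, the order ran Gdf11, Acvr2a, Tgfbr1, Fst, Mstn, Fstl3, Acvr1b, Inhbb, Acvr2b and Inhba. Each role therefore had a member in the upper 4 of this order, all at 13.3 TPM or more in every line, and the other 6 stayed at or below 10.7 TPM. Neighbours in this order were called apart only where the values of their lines did not overlap. That was so at 2 steps, between Fst and Mstn and between Inhbb and Acvr2b. At the other 7 steps the ranges overlapped. Read within lines, Tgfbr1 was above Fst and Acvr2b above Inhba in 3 of 3 lines, whereas the order of the other 5 overlapping neighbours turned in at least 1 line.

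**Figure D1:**
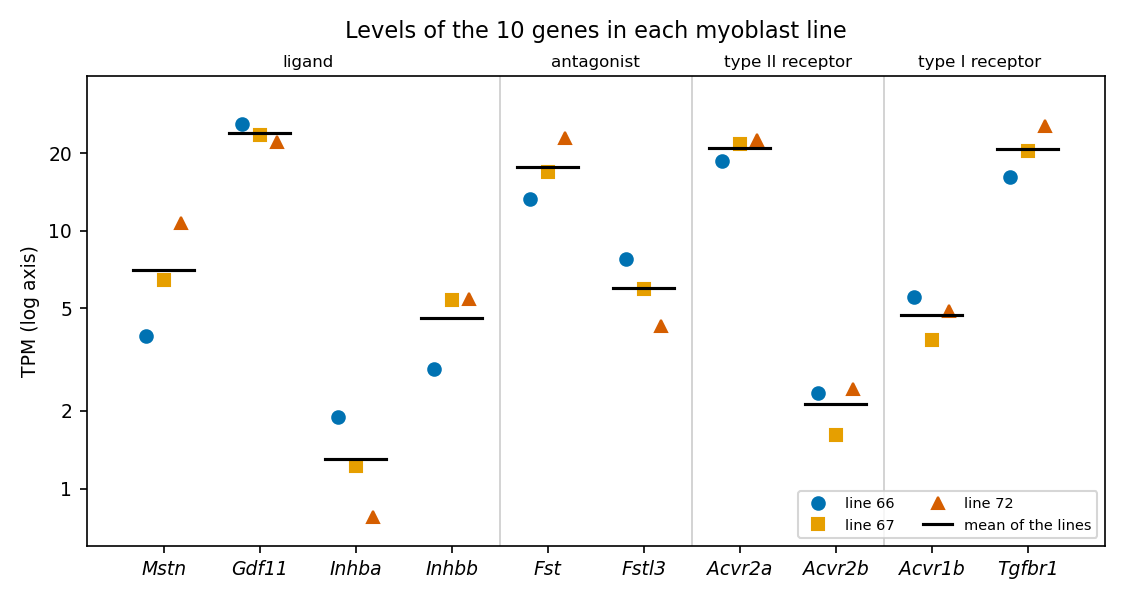
TPM (log axis) of the 10 genes in lines 66, 67 and 72, grouped by role, with 1 point per line and a bar at the mean. Gdf11, Acvr2a, Tgfbr1 and Fst lie at 13.3 TPM or more in every line, and the other members at or below 10.7 TPM.

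Among the ligands, Gdf11, which patterns the axial skeleton in the embryo, had the highest level and Inhba the lowest. Gdf11 (ENSMUSG00000025352.6, chromosome 10, 128882295 to 128891718) had 26.0, 23.6 and 22.1 TPM in lines 66, 67 and 72 (mean 23.9 ± 1.98, SD, n = 3). The lines lay close together, with the highest level 1.18 times the lowest. Mstn (ENSMUSG00000026100.6, chromosome 1, 53061640 to 53068079) had 3.91, 6.47 and 10.7 TPM (mean 7.04 ± 3.44, SD, n = 3), from 372, 556 and 946 estimated counts. Line 72 was the high line and line 66 the low one, 2.74-fold apart in TPM. Inhba, the subunit gene of activin A (ENSMUSG00000041324.14, chromosome 13, 16011851 to 16031621), had 1.89, 1.23 and 0.775 TPM (mean 1.30 ± 0.56, SD, n = 3), from 484, 288 and 185 estimated counts. Here line 66 was the high line and line 72 the low one, 2.44-fold apart. Inhbb, the subunit gene of activin B (ENSMUSG00000037035.5, chromosome 1, 119415465 to 119422248), had 2.91, 5.41 and 5.46 TPM (mean 4.59 ± 1.46, SD, n = 3). Line 66 stood below the other lines, which were nearly equal.

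The antagonists were both present, and the lines ordered them in opposite ways. Fst (ENSMUSG00000021765.9, chromosome 13, 114452290 to 114458951) had 13.3, 16.9 and 23.0 TPM in lines 66, 67 and 72 (mean 17.8 ± 4.88, SD, n = 3). Fstl3 (ENSMUSG00000020325.10, chromosome 10, 79777272 to 79782630) had 7.79, 5.96 and 4.28 TPM (mean 6.01 ± 1.75, SD, n = 3). Line 72 was thus the highest line for Fst and the lowest for Fstl3, and line 66 the reverse.

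In each pair of receptors 1 member had several times the level of the other. Acvr2a (ENSMUSG00000052155.5, chromosome 2, 48814109 to 48903269) had 18.7, 21.6 and 22.6 TPM in lines 66, 67 and 72 (mean 21.0 ± 2.02, SD, n = 3). Acvr2b (ENSMUSG00000061393.14, chromosome 9, 119402118 to 119434995) had 2.34, 1.62 and 2.44 TPM (mean 2.13 ± 0.451, SD, n = 3), with line 67 lowest. Tgfbr1, which encodes ALK5 and also serves the TGF-β ligands (ENSMUSG00000007613.15, chromosome 4, 47353222 to 47414931), had 16.2, 20.4 and 25.6 TPM (mean 20.7 ± 4.72, SD, n = 3). Acvr1b, which encodes ALK4 (ENSMUSG00000000532.11, chromosome 15, 101174067 to 101213684), had 5.52, 3.76 and 4.90 TPM (mean 4.73 ± 0.896, SD, n = 3), and line 67 was again lowest. All coordinates are on GRCm38.

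Ratios between members were read within each line, on the log2 scale of TPM + 1. Mstn was below Gdf11 in 3 of 3 lines, with a log2 ratio of -2.46, -1.72 and -0.98 in lines 66, 67 and 72 (mean -1.72 ± 0.74, SD, n = 3, or -2.81 with CPM). In TPM, Mstn was 0.15 of Gdf11 in line 66 and 0.486 in line 72. Inhba was below Inhbb in each line, at -0.44, -1.52 and -1.86 (mean -1.28 ± 0.75, SD, n = 3), with line 66 nearest to equality. Inhba was also below Mstn in every line (mean -1.75 ± 0.98, SD, n = 3), although with CPM, which has no length correction, the mean was -0.83 and Inhba was above Mstn in line 66 (6.60 against 5.08 CPM). In TPM, the pairs of ligands thus kept their order while the size of the gap differed between lines.

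Fst was above each gene it was set against. Its log2 ratio to Fstl3 was 0.71, 1.36 and 2.18 in lines 66, 67 and 72 (mean 1.42 ± 0.74, SD, n = 3). To Inhba it was 2.31, 3.01 and 3.76 (mean 3.03 ± 0.72, SD, n = 3), with a mean of 1.85 on CPM and of 3.72 with a pseudocount of 0.1. To Mstn it was 1.55, 1.26 and 1.03 (mean 1.28 ± 0.26, SD, n = 3), the narrowest spread of these 3 ratios of Fst to a single gene. Counted together, Fst and Fstl3 had 21.1, 22.9 and 27.3 TPM, against 34.7, 36.7 and 39.1 TPM for the 4 ligand genes. The log2 ratio of antagonists to ligands was -0.62 ± 0.10 (SD, n = 3), against -1.08 from protein-coding transcripts alone and -1.85 with CPM, and Gdf11 alone made up more than the rest of the ligand sum in every line. These are amounts of RNA and say nothing of the secreted proteins.

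Acvr2a exceeded Acvr2b by 2.56, 3.11 and 2.78 on the log2 scale in lines 66, 67 and 72 (mean 2.82 ± 0.28, SD, n = 3). Acvr1b was below Tgfbr1 by -1.40, -2.17 and -2.17 (mean -1.91 ± 0.45, SD, n = 3). An exact two-sided sign-flip test over the lines gave p = 0.25 (Benjamini-Hochberg adjusted over 9 ratios, 0.25) for each of the 9 ratios, which is the smallest p that 3 lines allow, so no ratio could pass a threshold of 0.05.

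**Figure D2:**
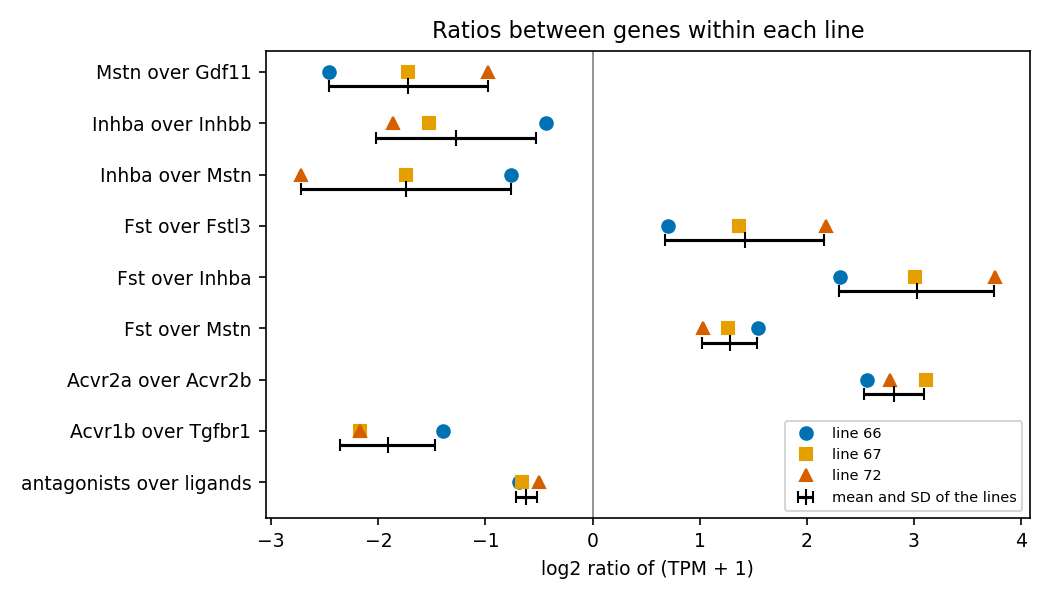
Log2 ratio of TPM + 1 between genes, or between sums of genes, within each line (points), with the mean and SD over the 3 lines in black. Each ratio lies on 1 side of 0 in every line, from 3.03 on average for Fst over Inhba to -1.91 for Acvr1b over Tgfbr1.

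The spread of the members between lines was set beside that of the 12528 genes that averaged 1 TPM or more, as each of the 10 members did. The SD of log2(TPM + 1) over the lines had a median of 0.33 over the members and of 0.14 over all these genes (middle 50% of genes, 0.08 to 0.23). Mstn had the widest spread of the members (0.63, above 97.4% of genes), and Inhbb, Fst, Fstl3 and Inhba had SDs between 0.35 and 0.41, each above at least 89.3% of genes. Gdf11 (0.11) and Acvr2a (0.14) had the narrowest, above 39.6% and 48.9% of genes. Fitted by edgeR on rounded counts of 15654 genes, the biological coefficient of variation of single genes was again high for Inhba (0.372), Mstn (0.356), Fstl3 (0.303) and Inhbb (0.268) and low for Gdf11 and Acvr2a (0.122 each), beside a median of 0.177. The order differed for others. Fst had 0.20, above 56.1% of genes in place of 90.6%, and Tgfbr1 had 0.159, above 44.3% in place of 86.6%, whereas Acvr2b had 0.248, above Fst.

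More than 2-fold apart between any lines on the TPM + 1 scale was 1 of the 10 members, Mstn (2.39-fold), beside 4.05% of the 12528 genes. Mstn was that much higher in line 72 than in line 66, as were 1.09% of genes. Its log2 difference of 1.26 between these lines was exceeded by 0.575% of genes. The call rested on lines 66 and 72, since without line 66 or without line 72 the count was 0 of 10 members, beside 1.76% and 2.15% of genes. The fold also depended on the pseudocount, and with 0.1 in place of 1 Inhba passed as well, beside 6.67% of genes. On counts divided by DESeq2 size factors, which changes both the unit and the scaling, 3 members (Mstn, Inhba and Fstl3) passed, beside 6.75% of genes. Each line is 1 library, so these differences have no replicate check. The counting error was small beside them. The 95% exact Poisson intervals of the Mstn counts, scaled to 1000000 counts of a library, were 4.57 to 5.62, 7.63 to 9.02 and 12.6 to 14.3 in lines 66, 67 and 72, and did not overlap. For Inhba they were 6.03 to 7.22, 3.81 to 4.82 and 2.27 to 3.04. These intervals cover counting error only, since PCR copies were not told apart.

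In 5 members, Mstn, Inhbb, Fst, Acvr2a and Tgfbr1, the level was lowest in line 66 and highest in line 72, an order that 27% of the 12528 genes had. For Inhbb this rested on 5.46 against 5.41 TPM, and line 67 was the highest with CPM (18.8 against 18.3 in line 72), TMM and DESeq2 scaling, which leaves 4 members in this order. In 3 members, Gdf11, Inhba and Fstl3, it was highest in line 66 and lowest in line 72, as in 12.4% of genes. The log2 difference of line 72 from line 66 was 1.26 for Mstn, 0.74 for Fst and 0.72 for Inhbb. It was 0.63 for Tgfbr1 and 0.26 for Acvr2a, and -0.23 for Gdf11, -0.70 for Inhba and -0.73 for Fstl3. Over the 12528 genes its median was 0.07, and the median of its size without sign was 0.185. The 0.26 of Acvr2a was exceeded by 21.4% of genes. The first order is also that of the 6 differentiation markers, among them Myog, the factor that starts terminal differentiation, at 168, 222 and 310 TPM in lines 66, 67 and 72. As a share of the Myog level in lines 66, 67 and 72, Fst had 7.92%, 7.61% and 7.41%, Tgfbr1 9.62%, 9.16% and 8.25%, and Mstn 2.32%, 2.91% and 3.46%. Acvr2a had 11.1%, 9.74% and 7.27% and Inhbb 1.73%, 2.43% and 1.76%. Inhba had 1.12% in line 66 and 0.25% in line 72. The part of differentiating cells in these differences was not tested.

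**Figure D3:**
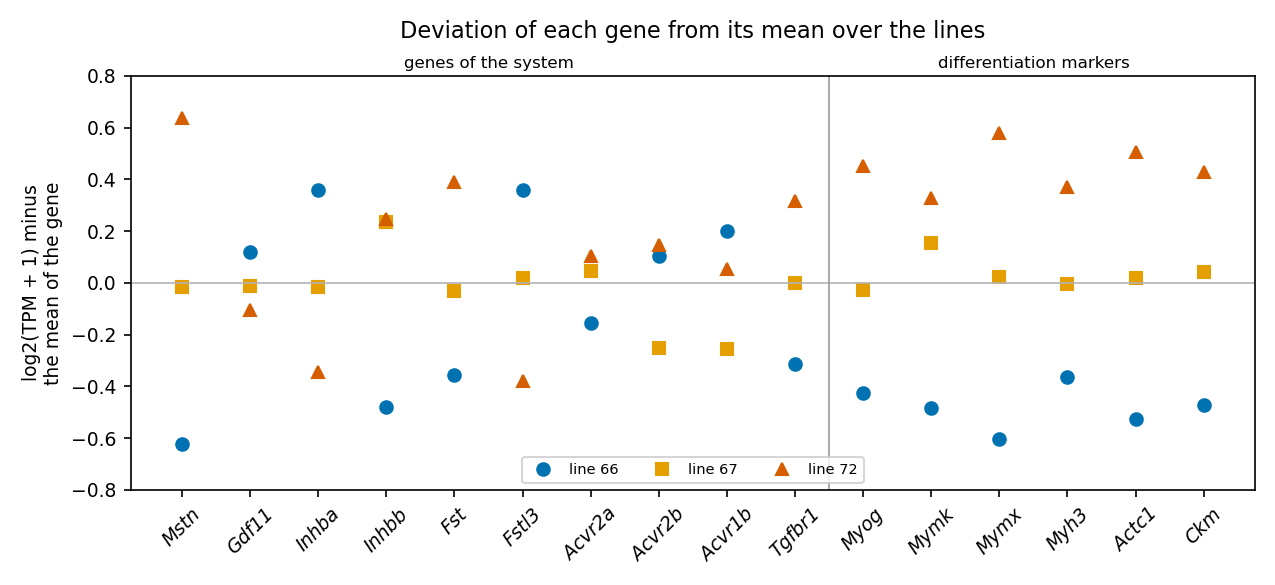
Deviation of log2(TPM + 1) from the mean of each gene over the lines, for the 10 members (left of the divider) and 6 differentiation markers (right). Mstn, Inhbb, Fst, Acvr2a and Tgfbr1 have line 66 lowest and line 72 highest, as the 6 markers do (for Inhbb, line 67 is highest with CPM, TMM and DESeq2 scaling), and Gdf11, Inhba and Fstl3 have the opposite order.

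Gdf11 and Fstl3 both lie on chromosome 10, whose genes stood above the other lines in line 66 by a median log2 difference of 0.28 (427 genes averaging 10 TPM or more, relative to all genes). Set against the other lines, line 66 was higher by 0.18 for Gdf11 and by 0.54 for Fstl3. With the chromosome medians taken out, the difference of line 72 from line 66 was 0.08 for Gdf11, which turns its direction, and -0.43 for Fstl3. The difference of Gdf11 between lines was thus no larger than that of its chromosome. The chromosomes of the other members shifted by at most 0.08 in any line, and for Mstn the difference stayed at 1.19.

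The 10 genes had 29 transcripts in the tables. Gdf11, Inhbb and Acvr1b had a single transcript, and Inhba and Mstn were carried almost wholly by 1, since Mstn-201 held 94.6% or more of the Mstn level in every line and Inhba-202 had a count of 0. Tgfbr1-201 held 89.6 ± 2.2% of the Tgfbr1 level and Acvr2b-205 88.0 ± 3.50% of the Acvr2b level (SD, n = 3 each). Acvr2b-202 passed 10% in line 67 alone, at 10.5%, from 18.1 estimated counts.

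Fst was the member with the most mixed transcripts. Follistatin is made in a shorter and a longer form by alternative splicing near the end of its coding sequence, and the shorter form is the one that binds to cell surfaces. Fst-202, with the shorter coding sequence (951 bases without the stop codon), held 45.6%, 47.0% and 43.9% of the Fst level in lines 66, 67 and 72. Fst-205, with a coding sequence of 1029 bases, held 36.6%, 26.8% and 28.9%. Fst-201, which has 1032 coding bases, had a count of 0 in every line. Fst-203, a transcript with a retained intron and no coding sequence, held 14.2%, 22.1% and 24.6%, so line 66 had the lowest share of it. The protein-coding transcripts alone came to 11.0, 12.5 and 16.7 TPM, in the same order of lines as the whole gene.

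For Fstl3, the protein-coding transcript Fstl3-201 had 5.19, 3.64 and 1.82 TPM in lines 66, 67 and 72, which is 66.6%, 61.0% and 42.5% of the gene. The noncoding Fstl3-202 had 1.81, 1.95 and 2.02 TPM and Fstl3-203 between 0.371 and 0.796 TPM. As the counting split the reads, the coding transcript was 2.85-fold higher in line 66 than in line 72, against 1.82-fold for the gene. Only 289 of the 1925 words of 31 bases in Fstl3-201 and 145 of the 1519 in Fstl3-202 were in no other Fstl3 transcript, so this difference rests on that split. Acvr2a-201, the protein-coding transcript, held 78.0%, 78.2% and 83.9% of Acvr2a, and the noncoding Acvr2a-202 the rest.

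**Figure D4:**
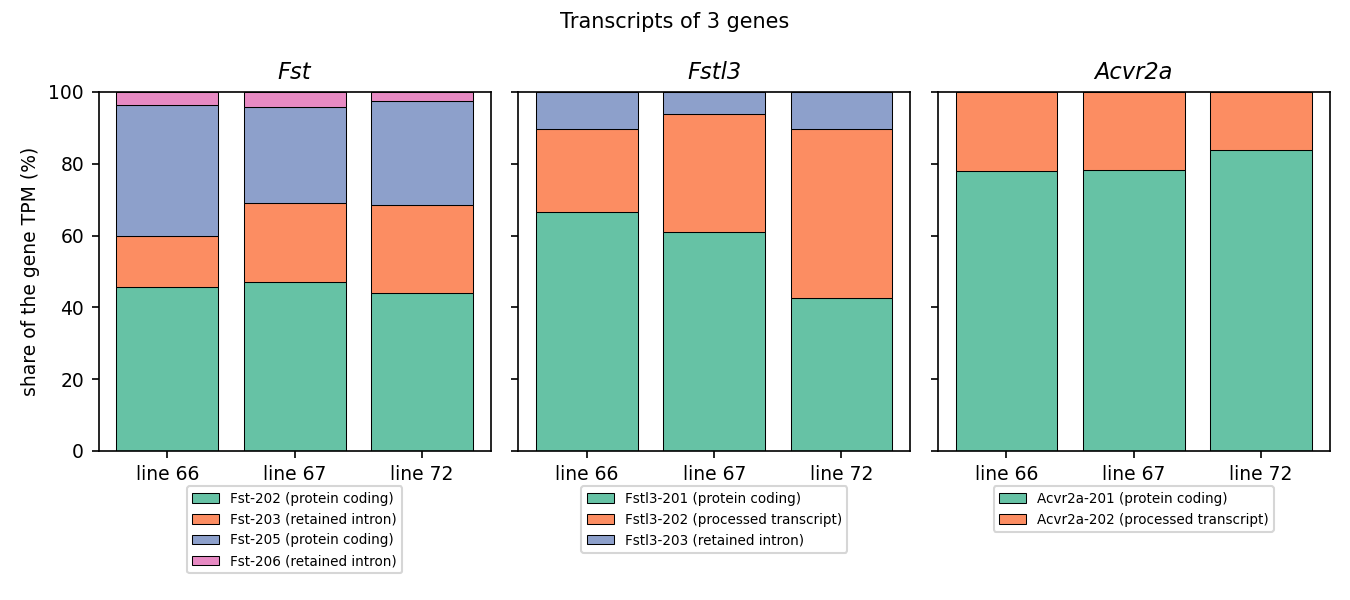
Share of the gene's TPM (%) held by each transcript with a mean share above 0.1% in lines 66, 67 and 72, stacked to the whole gene. Fstl3-201 has its lowest share in line 72, at 42.5%, whereas Fst-202 holds between 43.9% and 47.0% in each line.

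How far these values rest on shared sequence was measured with words of 31 bases. The members shared 0 such words with one another, which holds for the paralogs Mstn and Gdf11, for both inhibin beta subunits and for both receptors of a type. For 8 members, 97.7% or more of the words occurred in no other listed gene. The exceptions were Fstl3 (53.3%), whose exons overlap those of Prss57 on the other strand, and Acvr2a (92.7%), whose last part overlaps Orc4 on the other strand. Without the strand setting of the counting, reads there cannot be assigned with certainty. Prss57 was at 0.0582 TPM or less in every line, whereas Orc4 had between 85.4 and 98.7 TPM, and its overlap lies in Acvr2a-201. Shares within a gene rest on less. Only 2.77% of the words of Fst-205 and 2.37% of those of Acvr2a-202 lay in no other transcript of the gene, and for Fst-203, Fst-201 and Inhba-202 there were 0, so that the share of the first and the zeros of the others rest on how the counting split the reads.

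The other genes of the pathway were read from a list of 44 genes in 6 roles. Of these, 27 had at least 1 TPM in every line, 20 had at least 10 TPM and 5 had at most 3 counts in every line. None of the 28 that averaged 1 TPM or more was over 2-fold apart between lines on the TPM + 1 scale, beside 4.05% of genes. The median SD of log2(TPM + 1) over those 28 was 0.19. Of the 11 SMADs and their regulators, 11 had at least 1 TPM in every line, from Smad6 with a mean of 5.62 TPM to Tgif1, a corepressor of SMAD2 and SMAD3, with 149, 128 and 141 TPM in lines 66, 67 and 72. Smad4, the partner of the receptor-activated SMADs, had 71.8, 69.9 and 68.4 TPM, and its lines differed little. Of 5 genes that TGF-β and activin signals are known to induce, 4 had at least 1 TPM in every line. Cdkn1a, which encodes the cell cycle inhibitor p21, had 364, 452 and 497 TPM, and Pmepa1, a feedback inhibitor, had 25.1, 41.5 and 25.1 TPM, highest in line 67.

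Of 7 genes of ligand processing and latency, 4 had at least 1 TPM in every line. Furin, the convertase that cleaves the ligand precursors, had 102, 111 and 107 TPM, and Ltbp3, which holds latent ligand in the matrix, 50.5, 60.4 and 48.7 TPM. Bmp1, a protease of the family that frees myostatin from its propeptide, had a mean of 47.7 TPM, whereas its relatives Tll1 and Tll2 had means of 0.112 and 0.027 TPM. Of 9 other ligand and inhibin genes, 4 had at least 1 TPM in every line. Tgfb1 had 22.5, 27.4 and 14.8 TPM, with line 72 lowest, and Tgfb3 had 12.3, 14.9 and 16.6 TPM. Gdf1, Gdf3 and Inhbc had a count of 0 in every line, which allows up to 3 counts, and Nodal had at most 2 counts.

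Of 8 other antagonists and co-receptors, 1 had at least 1 TPM in every line. Inha, listed with the ligands, encodes the alpha subunit of the inhibins, which oppose activins, and had 4.82, 4.37 and 4.23 TPM. Lefty1, an antagonist of Nodal, had a mean of 1.55 ± 0.842 TPM (SD, n = 3) with line 66 highest, and Wfikkn1, which binds myostatin and GDF11, had 1.17, 0.958 and 1.02 TPM. Lefty2 had at most 1.02 counts in any line. Of 4 other receptors, 3 had at least 1 TPM in every line. Acvr1, a type I receptor of BMPs, had 30.1, 42.3 and 42.9 TPM. Bmpr2, a type II receptor of BMPs, had 21.0, 25.2 and 25.5 TPM, above Acvr2a in 3 of 3 lines. Acvr1c, which encodes ALK7, had a mean of 0.032 TPM.

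**Figure D5:**
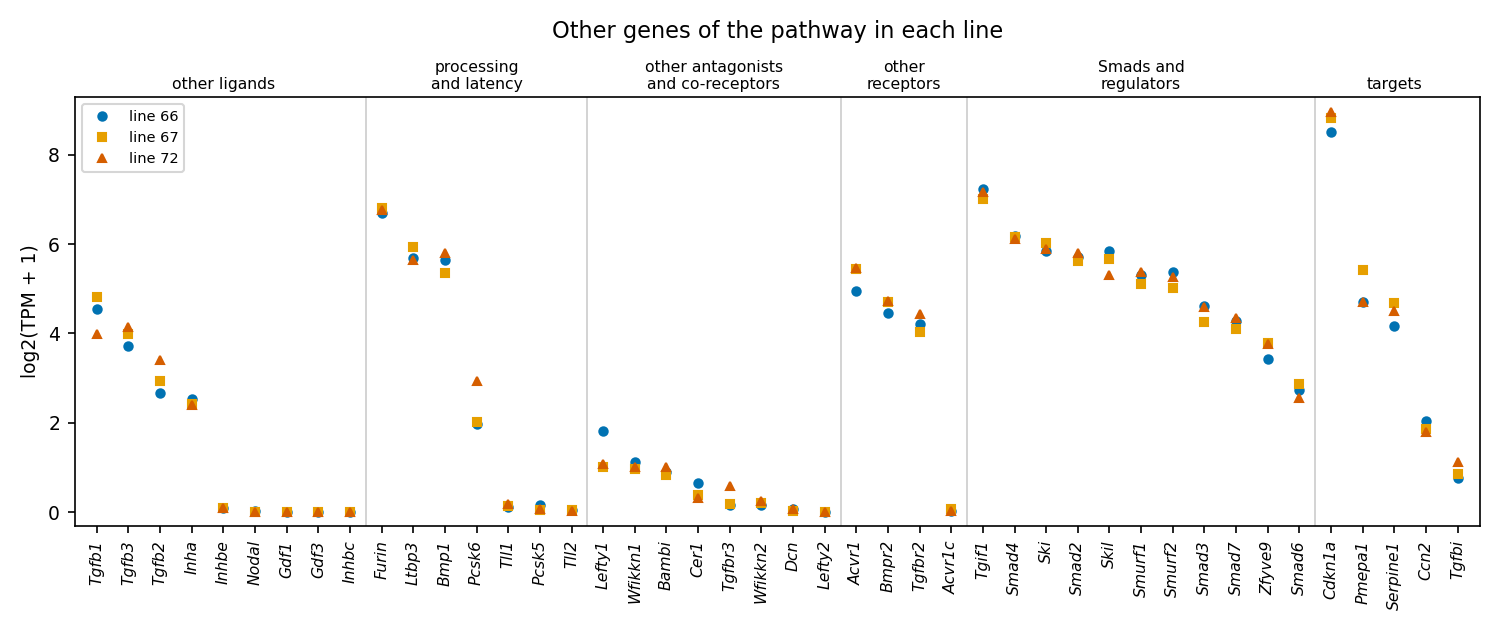
Log2(TPM + 1) of the 44 other pathway genes in lines 66, 67 and 72 (points), ordered by mean level within 6 roles. The SMADs and their regulators lie above 2 in every line, whereas 7 of the 8 other antagonists and co-receptors are below 1 TPM in at least 1 line.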

How the data were processed

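RNA-seq libraries of 3 edited myoblast lines (66, 67 and 72), made from poly-A-enriched RNA with a stranded protocol, were used. The line was taken as the replicate. Per the labels, the submitters' processing notes list bcl2fastq 2.20, fastp 0.20, kallisto 0.46.1 and GRCm39. The strand setting and the transcript set are not given in the sources used here. The authors deposited an estimated count for each of 121798 transcripts, with shared reads split between transcripts, together with TPM, in which counts are divided by effective length and scaled to 1000000 per library.

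Transcripts were matched by identifier to GENCODE M21 (GRCm38), used for gene names and coordinates only. The 1112 without a match (0.493% to 0.535% of counts) were left out, and values were summed per gene. Levels were compared as log2(TPM + 1), ratios with an exact sign-flip test, and lines by the genes over 2-fold apart among those averaging 1 TPM or more. For edgeR and DESeq2 scaling, estimated counts were rounded to whole numbers. There were no groups to test against each other.

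The members, the lists and the alternatives were chosen with earlier results of these data known. Named from the list of 44 pathway genes are the 2 with the highest mean in each role, those at or under 3 counts in every line, and a few chosen after their values were seen (Inha, Smad6, Bmp1, Tll1, Tll2 and Acvr1c). Transcripts with at least 10% of a gene in a line were named, with some others at 0 or beside them. The edgeR spread and 2-fold calls on CPM were run on simulated counts, in which the changes were larger than 2-fold. That run did not count false calls among unchanged genes, so it does not check the calls made here on TPM. Analyses ran in R 4.3.3 with DESeq2 1.42.0 and edgeR 4.0.16, and in Python 3.11.15 with scipy 1.17.1, pandas 2.3.3 and numpy 2.4.6. Figures were drawn with matplotlib 3.10.9.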

Additional observations from a re-analysis of the deposited data

How the results depend on the processing

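The 9 ratios kept their direction in all 54 values under the alternatives. These were a pseudocount of 0.1, CPM in place of TPM, protein-coding transcripts only, and leaving out each line. The pseudocount and leaving out a line could not turn a mean, since each ratio had the same sign in every line. Protein-coding transcripts left the ratios among ligand genes and that of Acvr1b to Tgfbr1 unchanged. The check therefore rests on CPM and on the other protein-coding ratios. The mean log2 ratio of antagonists to ligands was -1.85 with CPM, a scale without length correction, and -1.08 with protein-coding transcripts, in place of -0.62. With CPM, Inhba was above Mstn in line 66, and the exact sign-flip p of that ratio was 0.50 in place of 0.25. Without any 1 line the smallest p was 0.50.

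In place of 9 members, 4 reached a threshold of 10 TPM in every line. In place of 1 member over 2-fold apart, there were 6 at a fold threshold of 1.5, 2 with TMM-scaled counts (Mstn and Inhba), 3 with DESeq2 size factors (Mstn, Inhba and Fstl3), 2 with a pseudocount of 0.1, 0 of the 4 members left by a filter at a mean of 10 TPM, and 2 with protein-coding transcripts only (Mstn and Fstl3), an alternative chosen after seeing the data. In place of 508 of all genes (4.05%), there were 1784 (14.2%) at a fold threshold of 1.5, 516 (4.12%) with TMM-scaled counts, 846 (6.75%) with DESeq2 size factors, 835 (6.67%) with a pseudocount of 0.1, 183 (2.17%) with a filter at a mean of 10 TPM, 558 (1.57%) of 35562 with no filter (again with 1 member) and 444 (3.54%) with protein-coding transcripts only. With each line left out, the number of members over 2-fold apart was between 0 and 1, and that of all genes between 220 (1.76%) and 280 (2.23%). The differences of line 72 from line 66 kept their direction with CPM, TMM and DESeq2 scaling for 9 members, and that of Acvr2b (0.04 with TPM) was -0.07 with DESeq2 size factors. The cause of these changes was not tested, other than fewer genes or lines.

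Of 60 member levels under an alternative, 48 stayed within the SD of the lines, and 7 of the other 12 were with CPM. Leaving out a line could not fail this, since dropping 1 of 3 values moves a mean by less than the SD. Of the 10 levels, 3 stayed with CPM, 7 with a pseudocount of 0.1 and 8 with protein-coding transcripts only. Protein-coding transcripts left genes that had only coding transcripts unchanged. No paired analysis was possible because all libraries are of 1 condition. Nodal and Lefty2 had fewer than 3 counts in every line, so differences between lines in them were not detectable at this depth.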
